A study of Drosophila melanogaster with 3 samples.

Results

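Peaks of the transcription factor Gooseberry-neuro (Gsb-n) at the gene pumilio (pum) were examined. A peak was counted as a pum peak when its summit, the base with the highest signal, was nearest to a protein-coding transcription start site (TSS) of pum or lay inside the gene. The peaks were therefore chosen by their position, and pum itself was picked because many peaks met this rule, so their number is a description and received no test. The authors' stringent list, thresholded on the irreproducible discovery rate (IDR), holds 5746 peaks, and 15 of them (0.261%) belonged to pum. The relaxed lists, which hold 30000 peaks each, gave 77 pum peaks in replicate 1, 75 in replicate 2, 68 in replicate 3 and 67 in the list called on all replicates together. Of these, 21, 18, 19 and 18 were nearest to a TSS of another gene and were counted only for lying inside pum. None of the 15 IDR peaks was.

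The data come from chromatin immunoprecipitation followed by sequencing of whole Drosophila melanogaster embryos aged 4 to 14 hours. The embryos carried a transgene that stably expresses Gsb-n with green fluorescent protein (GFP) at its C terminus, and an anti-GFP antibody was used on sonicated chromatin of 200 to 800 bp. There is 1 group with 3 biological replicates. No control sample was analysed here, so no control level is given beside the peaks, although the authors' peak calling drew on 1 further file besides the replicates. The cells in which a site was occupied are not known. Sequencing depth is unknown, because the lists carry no read counts. Nothing in the labels says whether the replicates were separate embryo collections.

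Pumilio is an RNA-binding protein of the PUF family that binds short elements in the 3′ ends of messenger RNAs and represses them. In the early embryo it acts with Nanos and Brain tumor to repress hunchback, which sets up the abdomen. In neurons it limits excitability through the sodium channel gene para and shapes dendrites and synapses. Gsb-n is a Pax protein with a paired domain and a homeodomain, which acts in the embryonic nervous system. The data show where Gsb-n was recovered near pum and hold no measurement of pum RNA.

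The gene (FBgn0003165) spans 171340 bp on the minus strand of chromosome arm 3R, from 9066343 to 9237682 in dm6. Its 8 annotated transcripts begin at 4 start sites. From the 5′ end these lie at 9237682, at 9237025, at 9226840 and at 9157950. The fourth start lies 79732 bp downstream of the first, inside intron 8 of the canonical transcript, which is 132737 bp long. The exons for the RNA-binding domain follow at the 3′ end. The peaks are numbered below from 1 to 15 from the 5′ end of pum.

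Sequence is shown for the peaks at the 4 start sites, for the strongest peak and for the peaks with the homeodomain core TAATTA, so that the results below can be read against it. It is from the RefSeq copy of genome release 6, which is dm6, read 5′ to 3′ on the minus strand, with the summit at the centre. Capitals mark TAATTA and GAGAG on either strand, and peaks 1, 2 and 12 have neither in the stretch printed. The start-site stretches reach 70 bases to each side of the summit and the others 100, and none of them overlaps an annotated exon.
Peak 1, chr3R:9237916-9238056: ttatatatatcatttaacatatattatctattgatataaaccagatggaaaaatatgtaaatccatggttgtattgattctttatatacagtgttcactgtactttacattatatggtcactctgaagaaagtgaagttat
Peak 2, chr3R:9237206-9237346: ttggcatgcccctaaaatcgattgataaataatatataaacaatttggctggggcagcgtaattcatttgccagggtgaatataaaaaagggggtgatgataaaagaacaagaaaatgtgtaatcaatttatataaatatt
Peak 6, chr3R:9227086-9227226: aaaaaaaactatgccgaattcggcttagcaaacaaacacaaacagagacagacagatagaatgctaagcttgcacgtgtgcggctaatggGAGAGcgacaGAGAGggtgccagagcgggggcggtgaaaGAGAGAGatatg
Peak 12, chr3R:9157951-9158091: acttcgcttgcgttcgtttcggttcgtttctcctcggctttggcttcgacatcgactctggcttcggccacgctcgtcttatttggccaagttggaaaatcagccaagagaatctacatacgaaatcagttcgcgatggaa
Peak 8, chr3R:9215603-9215803: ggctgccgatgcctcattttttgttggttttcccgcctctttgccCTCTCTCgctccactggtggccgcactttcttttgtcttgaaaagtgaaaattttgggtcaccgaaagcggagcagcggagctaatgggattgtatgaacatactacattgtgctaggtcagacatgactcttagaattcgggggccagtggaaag
Peak 4, chr3R:9230292-9230492: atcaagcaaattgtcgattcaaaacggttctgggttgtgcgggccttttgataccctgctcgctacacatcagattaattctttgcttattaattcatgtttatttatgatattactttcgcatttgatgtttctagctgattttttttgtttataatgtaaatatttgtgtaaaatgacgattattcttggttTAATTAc
Peak 10, chr3R:9159957-9160157: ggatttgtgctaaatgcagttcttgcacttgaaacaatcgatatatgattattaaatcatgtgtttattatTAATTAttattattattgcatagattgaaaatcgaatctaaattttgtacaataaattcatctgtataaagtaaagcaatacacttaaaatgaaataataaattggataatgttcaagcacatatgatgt

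Counted at its nearest start, 1 IDR summit lay within 500 bp of each of the 4 pum start sites, upstream of that start. Peak 2 also lay within 500 bp of the first start, 0.406 kb downstream of it. Peak 1 was 304 bp upstream of the first start, peak 2 was 251 bp upstream of the second, peak 6 was 316 bp upstream of the third and peak 12 was 71 bp upstream of the fourth. These 4 are 26.7% of the pum peaks, against 35.3% (2031) of all 5746 IDR summits within 500 bp of a protein-coding TSS. The other 11 pum summits (73.3%) were intronic, as were 38.4% of all IDR summits, and none was in another exon of a protein-coding gene.

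The start-site peaks were of middling to low strength. Signal here is the value the authors gave each peak, on a scale that differs between lists, so peaks are compared by rank within a list (rank 1 is the strongest). Peak 1 (9237778 to 9238193) had an IDR signal of 231 and ranked 2888 in replicate 1, 4239 in replicate 2 and 2419 in replicate 3. Its interval runs into the 3′ end of D1, the gene of an AT-hook chromatin protein that lies 400 bp beyond pum. Peak 2 (9237068 to 9237483) had a signal of 168 and ranked 6782, 4649 and 3861 in replicates 1, 2 and 3. Peak 6 (9226948 to 9227363) had a signal of 251 and ranked 3351, 3133 and 3799, the closest agreement between replicates among the 13 pum peaks found in each. The highest of its 3 ranks was 1.21 times the lowest.

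Peak 12 (9157813 to 9158228) marks the internal start, from which 3 shorter transcripts begin. It had a signal of 206 and ranked 3702 in replicate 1 and 5472 in replicate 3. Replicate 2 had no summit within 100 bp, the distance used to match peaks between lists. Its nearest summit lay 216 bp away, further upstream, at rank 4190. The pooled list holds a second summit on that side, 302 bp from the start, with a signal of 144.4, just outside the IDR list at rank 6590.

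The coincidence of peaks with every start was counted across genes, a comparison chosen after these values were seen. Of 251 protein-coding genes with 4 or more starts over 500 bp apart, 1 (0.398%) had an IDR summit within 500 bp of every start, and it was pum. Of these genes, 125 had no start with such a summit. Within 1000 bp, 6 of the 251 genes had every start marked, and within 250 bp none had, with 1 of 4 pum starts marked. The minimum of 4 starts is the number that pum itself has. Among 671 genes with 3 or more such starts, 9 (1.34%) had every start marked within 500 bp and 31 (4.62%) within 1000 bp. Because pum was picked for its many peaks, these counts describe the list and are not a test.

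**Figure D1:**
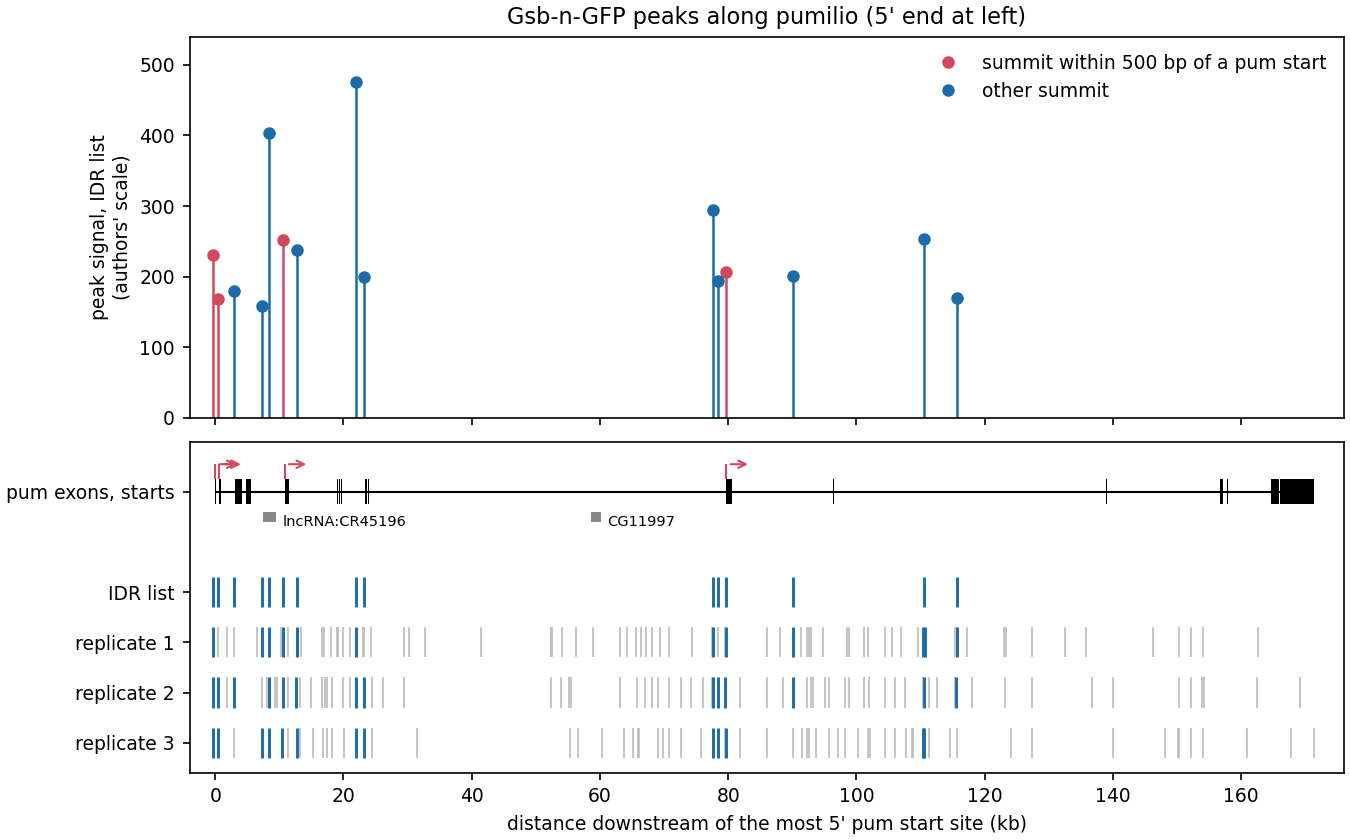
Upper panel: IDR signal (authors' scale) of the 15 pum peaks against distance in kb downstream of the most 5′ start, in red within 500 bp of a start and in blue elsewhere. Lower panel: pum exons (black), starts (red arrows) and nested genes (grey), with pum summits of each list below, in blue when among the top 5746 of that list and in grey otherwise. Most blue marks are crowded at the left. An inner stretch of 54.4 kb has no IDR summit, nor does the gene beyond peak 15 at 115.6 kb.

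The strongest pum peaks lay in introns of the 5′ part. Peak 8 (9215599 to 9215791), in intron 6 and 11137 bp downstream of the third start, had a signal of 476. Its signal was 160 in replicate 1, 197 in replicate 2 and 119 in replicate 3, where it ranked 1211, 949 and 766, and it ranked 956 in the IDR list. Peak 5 (9229190 to 9229356), in intron 3, had a signal of 404 and ranked 1139, 1583 and 1802 in replicates 1, 2 and 3. These were the 2 highest pum peaks in every replicate and the 2 pum peaks in the top 25% of the IDR list. Peak 5 lies within lncRNA:CR45196, a non-coding gene nested in the intron on the opposite strand, so its position does not single out pum. Both intervals were narrower than the 416 bp that 12 of the pum peaks share, at 193 bp and 167 bp, as was peak 7 at 172 bp. Of all IDR peaks, 29.3% were narrower than 416 bp.

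The other intronic peaks of the 5′ part varied more between replicates. Peak 7 (9224886 to 9225057), in intron 3, had a signal of 238 and ranked 2789, 3820 and 2085 in replicates 1, 2 and 3. Peak 9 (9214229 to 9214644), in intron 6, had a signal of 199.7 and ranked 6323, 4449 and 2210. Peak 3 (9234544 to 9234959), in intron 1, had a signal of 179.7 and ranked 5890, 3809 and 15854. Its ranks differed by a factor of 4.16, the widest of the pum peaks found in every replicate. Peak 4 (9230184 to 9230599), in intron 3, had a signal of 158.2 and ranked 4844, 11251 and 4998. It is the weakest pum peak, at rank 5743 of the 5746 in the IDR list. The interval of peak 4 also runs into lncRNA:CR45196, although its summit lies outside that gene.

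Intron 8 held 6 peaks, of which 3 lay upstream of the internal start. Peak 10 (9159849 to 9160264), 2107 bp upstream of the fourth start, had a signal of 294, the third highest at pum, and ranked 1674, 2526 and 4078 in replicates 1, 2 and 3. Peak 11 (9159102 to 9159517), 1360 bp upstream of that start, had a signal of 194 and ranked 8492, 3701 and 4050. With peak 12 they form a group on the upstream side. The other 3 lay downstream of the start. Peak 13 (9147399 to 9147814) had a signal of 200.8 and ranked 4541, 3360 and 9779. Peak 14 (9126875 to 9127290) had a signal of 254 and ranked 2706, 3444 and 3817, among the steadier ones. Peak 15 (9121865 to 9122280), 35877 bp from the nearest start, had a signal of 169 and ranked 4126 in replicate 1 and 8292 in replicate 3. In replicate 2 its nearest summit was 105 bp away, just past the matching distance, at rank 4297.

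**Figure D2:**
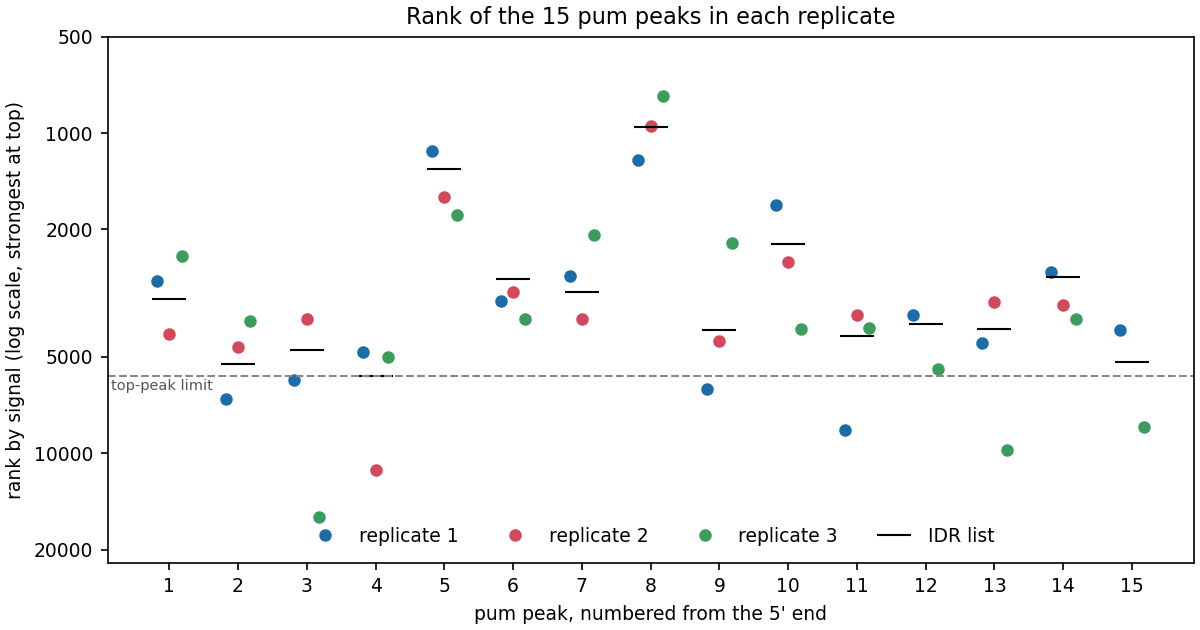
Rank by signal (log scale, strongest at the top) of each pum peak in replicates 1 to 3 (dots) and in the IDR list (black bars); the dashed line is rank 5746. Peaks 5 and 8 stand above the rest in every replicate, peak 3 in replicate 3 lies lowest, and peaks 12 and 15 have no matched summit in replicate 2.

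All 3 replicates placed a similar number of strong peaks at pum. Among its own top 5746 peaks, replicate 1 had 12 at pum, replicate 2 had 14 and replicate 3 had 13 (mean 13 ± 1, SD, n = 3). Of these, 1, 2 and 1 in replicates 1, 2 and 3 matched no pum IDR summit within 100 bp. Of the 15 IDR peaks, 7 were among the top peaks of all 3 replicates (46.7%, exact 95% interval 21.3 to 73.4, counting error only), 6 of 2 replicates and 2 of 1. Over all IDR peaks the share in all 3 was 56.8% (3261), and over the 4788 IDR peaks whose signal lay in the range of the pum peaks it was 48.5%. The share at pum is thus near that of peaks of like strength. In the whole replicate lists, 13 of 15 pum peaks were found in all 3, against 89.4% of all IDR peaks. Matched pum peaks had a median rank of 3702 in replicate 1, 3701 in replicate 2 and 3861 in replicate 3. These medians were similar, but they cover 15, 13 and 15 peaks, because peaks 12 and 15 had no match in replicate 2. The IDR list is not independent of the replicates, since it derives from them.

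Most pum peaks were weaker than the typical IDR peak. Their median signal was 206, against 250.3 over all IDR peaks, and 5 of 15 lay above that median. The highest, 476, compares with 3712 for the highest peak of the list. At the lower edge, peak 2 (168) and peak 4 (158.2) were the last pum peaks inside the list. The first outside was a summit at 9083566 with a signal of 157.3 at pooled rank 5791. The next was at 9127308, beside peak 14, with 154.3 at rank 5983.

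The IDR peaks lay mostly in the 5′ part of the gene, divided here after the values were seen. The 23.9 kb between the first start and intron 8 held 8 summits, or 33.4 per 100 kb, intron 8 held 6 in 133 kb, or 4.52 per 100 kb, and the 14.7 kb downstream of intron 8 held none. The 6 chromosome arms together had 4.29 per 100 kb. In the replicates' own top peaks the 5′ part had 20.9, 29.3 and 29.3 per 100 kb (26.5 ± 4.83, SD, n = 3) and intron 8 had 4.52, 4.52 and 3.77 (4.27 ± 0.435, SD, n = 3). Because the division followed the peaks, the gap between the parts is a description. Replicate 1 was the lowest in the 5′ part, with 5 top peaks there against 7 in each of the others. In the pooled list the 5′ part had 71.1 per 100 kb and intron 8 had 36.2, against 22.4 over the arms, so intron 8 was near the average of the arms in the IDR list and above it in the pooled list. Beyond peak 15, which lies 115.6 kb downstream of the first start, the rest of the gene held no IDR summit. The widest stretch of pum between neighbouring IDR summits, from peak 9 in intron 6 to peak 10 in intron 8, measured 54.4 kb. The relaxed lists were not empty there: they had 20, 17 and 15 summits in replicates 1, 2 and 3. The single one of these among the top peaks, in replicate 3, is peak 10 itself, called 2 bp into the stretch.

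**Figure D3:**
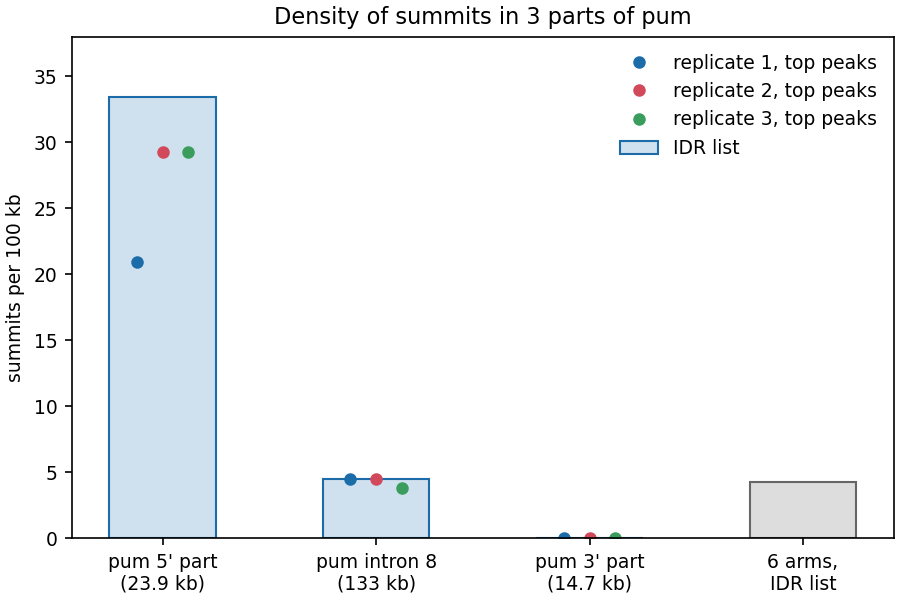
Summits per 100 kb in the 5′ part, intron 8 and 3′ part of pum and over the 6 chromosome arms; bars are the IDR list and dots the top 5746 peaks of each replicate. The 5′ part has 33.4 per 100 kb in the IDR list and at least 20.9 in each replicate, intron 8 has 4.52 and the arms have 4.29.

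Pum is among the longest genes of the fly, and some genes of like length had few peaks. A peak of the IDR list was assigned to 3078 of 13945 protein-coding genes (22.1%), and 15 or more to 4 genes (0.0287%), pum included. Pum was nearest to 15 and contained 14. Among the 307 genes of 50 kb or more it was the 12th longest, 8th in the number of summits inside and 48th in their density, with 8.17 per 100 kb against a median of 1.78. In the 34 other genes within 25% of its length, the number of summits inside ran from 0 to 17, with a median of 2 and hth the highest. In 111 of the 307 long genes there was none.

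**Figure D4:**
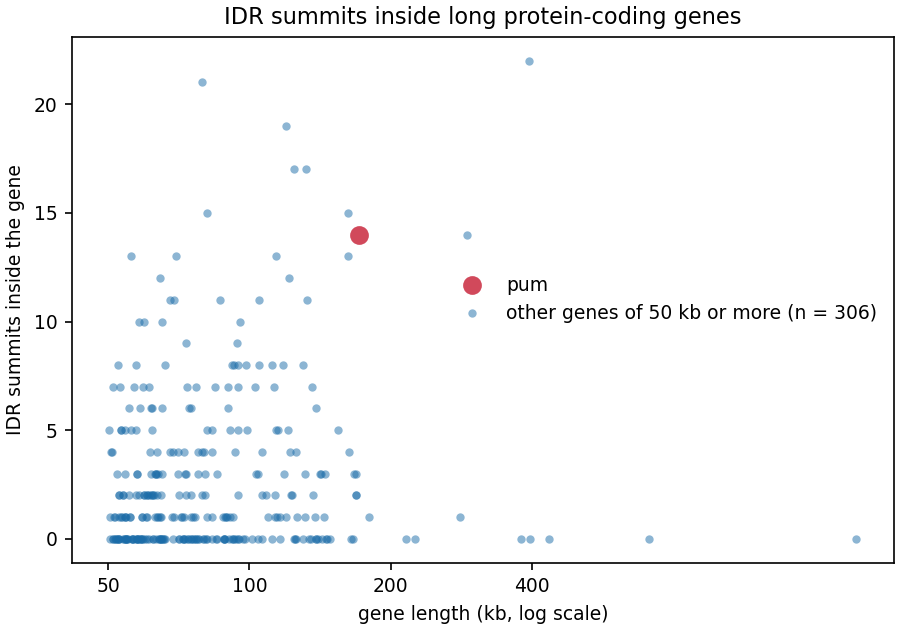
Number of IDR summits inside each protein-coding gene of 50 kb or more against gene length (kb, log scale), with pum in red and the 306 others in blue. Pum, at 171.3 kb and 14 summits, is high for its length, while several shorter genes have as many or more.

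Genes with counts like those of pum in the 3 replicates were found by summing the differences in the number of top peaks over the replicates. The nearest were RapGAP1 (12, 15 and 14 in replicates 1, 2 and 3) and the forkhead gene CHES-1-like (11, 14 and 12), each with a summed difference of 2. The wing vein gene plexus (px) and the zinc-finger gene noc followed with 3, and CG42238 with 4. These counts say nothing of position or strength: the strongest px peak had a signal of 3712. Of the genes with as many IDR peaks or more, the homeobox gene hth had 23 and none within 500 bp of a TSS. The nuclear receptor gene Eip75B had 15 with 2 there, and CG43245 had 15 with none. RapGAP1, with 14 IDR peaks, had 4 there, as many as pum. These differences were not tested.

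Each motif of paired-class proteins searched for was found in at most 2 of the 15 pum windows. The shares lay above those over all IDR windows for some of these motifs and below them for others. In windows reaching 100 bases to each side of the summit, searched on both strands, TAATTA was found in 2 of 15 (13.3%, exact 95% interval 1.66 to 40.5), namely peaks 4 and 10. It was in 17.3% of all 5746 IDR windows and in 15.9% of 784 windows tiled along the rest of pum, over 500 bp from an IDR summit. In peak 4 the match is at the very edge of the window, 1 base from its end. The paired-class dimer of TAAT and ATTA with a gap of 3 bases was in peak 7 alone, against 2.91% of IDR windows, and that with a gap of 2 bases in none, against 2.58%. The paired-domain core GTCACG was in peak 15 (4.7% of IDR windows) and the core GTTCC in peak 12 (19.6%). Matches of different motifs may overlap, and shares over 15 windows are coarse.

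Of the other motifs, GAGAG was the most frequent relative to all IDR peaks. GAGAG, the core of GAGA factor sites, was in 6 of 15 windows (40.0%, exact 95% interval 16.3 to 67.7), against 23.2% of IDR windows and 21.4% of the rest of pum. Those 6 were peaks 6, 8, 11, 12, 13 and 15, and peak 6, at the third start, has the motif several times in the window printed above. The interval includes the share over all peaks, and in peak 12 the match lies outside the shorter stretch printed. CAGGTA, a Zelda site, was in none (3.9% of IDR windows), nor was TATCGATA, the DNA replication-related element (2.63%). The E-box CANNTG was in 9 of 15 (60.0%) and in 58.8% of IDR windows. GC content averaged 36.1% ± 9.63 over the 15 pum windows and 37.1% ± 8.8 over all IDR windows (SD over windows). The medians lay further apart, at 30.8% for pum and 36.3% for all IDR windows. The windows tiled along the rest of pum averaged 39.6%. Among the pum peaks GC content ran from 23.4% in peak 10 to 52.2% in peak 6.

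Genes that work with Pumilio or are repressed by it were looked up in a list of 25, all of which are named here. Of these, 14 (56.0%) were nearest to at least 1 IDR peak, against 22.1% of all protein-coding genes. In the replicates' own top peaks 12, 12 and 14 were, in replicates 1, 2 and 3. Gene length was not matched in this comparison, and the median number of peaks was 1 in the list and 0 over all genes.

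Of 14 partners, 8 had a peak. Brat, which encodes the co-repressor Brain tumor, had 5, the strongest with a signal of 1041 at rank 151, 718 bp from a TSS. Subunits of the CCR4-NOT deadenylase complex were mixed: Not10 had 1 peak (signal 900.2), Not1 had 1 (393.1), Cnot4 had 1 (234.7), twin had 1 (211.6) and Pop2 had 1 (159.6), while Not3, Rga and Not11 had none. The twin peak lay 5466 bp from a TSS, and those of the other subunits with a peak lay at most 111 bp away. The poly(A)-binding protein gene pAbp had 1 (349.2) and bam, a germline differentiation gene, had 1 (169.3). The co-repressor gene nanos, the PUF-related gene peng and mei-P26 had none.

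Of 12 targets, 6 had a peak. The mitotic cyclin gene CycB had 2, the strongest with a signal of 1833 at rank 33 but 3329 bp from its TSS. The IκB gene cact had 1 (688.8), the cell death gene hid 2 (517.7), the anterior determinant gene bcd 2 (314.6), the genome activator gene zld 2 (274.7) and the synaptic scaffold gene dlg1 1 (188.4). The peaks quoted for hid and bcd lay 7399 bp and 1534 bp from a TSS, those for cact, zld and dlg1 at most 708 bp. The classical target hb had none, nor did nanos, which is in both lists, para, eIF4E1, GluRIIA or Ace.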

How the data were processed

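The authors deposited peak lists for dm6, per the file headers and labels: 1 for each of 3 replicates, 1 pooled and 1 IDR list. Per the deposited notes, each replicate list derives from its own alignment and the pooled list from all 3, each with 1 further file common to all, which also enters the control-normalized signal tracks but is not itself described, and the IDR list from the replicate and pooled lists. Neither the aligner nor the peak caller or IDR cutoff is given in the sources used here. The deposited signal values are on the authors' scale, which differs between lists, and served for ranks inside 1 list. The deposited −log10 q values were at the list maximum of 4.02 for 12 of 15 pum peaks and 90.1% of all IDR peaks and were not used to rank. The deposited summit offsets gave the summits. All 5746 IDR peaks occur in the pooled list unchanged. The relaxed lists hold 30000 peaks each, so their length says nothing of a replicate. The deposited p column holds no p-values, and signal tracks were not analysed here.

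Summits were assigned with the Ensembl release 115 annotation, and sequence came from the RefSeq copy of genome release 6. Top peaks are the 5746 strongest of a list, and summits within 100 bp were matched. Python 3.11.15, pandas 2.3.3, numpy 2.4.6, scipy 1.17.1 and matplotlib 3.10.9 were used, and the scripts were tested on simulated data. With 1 group, no control sample and members chosen from the peaks, no test between groups was made. Intervals on shares are exact (Clopper-Pearson, 95%) and cover counting error only. They treat neighbouring peaks of 1 gene as independent and are not tests. Every pum IDR peak, the neighbouring and nested genes, the 5 genes most alike in counts, hth, Eip75B, CG43245, RapGAP1 and the partner and target genes were named. The rule allowed 6 of the last, and the rest were added after their values were seen. The members and lists were chosen with earlier results of these data known. Alternatives changed the assignment rule, the threshold, the matching distance, the number of top peaks, the window width and the replicates used.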

Additional observations from a re-analysis of the deposited data

How the results depend on the processing

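Of 29 alternatives, 20 gave a count, mean count or density within 1.5 times the reported one, or a mean GC content within 1 SD (over windows) of it. In the 2873 strongest IDR peaks, 5 pum peaks were left instead of 15, and the density in the gene was 2.92 per 100 kb instead of 8.17. In the pooled list the density was 38.5. With 2873 top peaks per replicate, 2 pum peaks were in all 3 replicates instead of 7, and the mean per replicate was 4.33 instead of 13. With whole replicate lists 13 were in all 3. Leaving out each replicate in turn gave 8 to 10 peaks in both others and means of 12.5 to 13.5. Within 250 bp of a start there was 1 pum summit instead of 4. TAATTA was in 1 of 15 pum windows with 50 bases to each side, a share below the 10.5% of all IDR windows. With 200 bases to each side it was in 5 of 15, a share above the 27.4% of all IDR windows. These alternatives count fewer or more peaks or bases, and how much of each change this accounts for was not tested. Matching by replicate interval and the replicates' own density were added after the data were seen. Matching within 50 bp gave 5 peaks in all 3. No paired analysis was possible because there is 1 group. Without read counts, depth cannot be weighed.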

Other observations

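Below the IDR threshold, the pooled list had 52 further pum peaks. Of these, 15 (28.8%) had a summit within 100 bp in all 3 replicates, against 21.9% of the 24254 pooled peaks outside the IDR list. Of those 52, 3 had none in any replicate.

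CG11997, a protein-coding gene nested in intron 8 of pum, was nearest to 11 pooled peaks and to 13, 9 and 9 in replicates 1, 2 and 3, and to none of the IDR list. Ada, which ends 39 bp from the 3′ end of pum, was nearest to 8 pooled peaks and to 10, 10 and 11 in the replicates, also with none in the IDR list. D1 was nearest to 1 IDR peak of its own, and to 1 in each other list.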
